A study of Mus musculus with 10 samples.

Results

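The 80 genes described here are the nuclear genes for subunits of the oxidative phosphorylation complexes, measured in 10 pools of hand-picked mouse vagal sensory neurons. They were chosen by symbol alone from the 24421 genes of the count tables. The symbols were those of Ndufa, Ndufb, Ndufc, Ndufs and Ndufv followed by a number, Sdha to Sdhd, all beginning with Uqcr or Atp5, and Cox4 to Cox8 with their letter and number, with pseudogene and retrogene endings left out. By complex, 35 belonged to complex I, 4 to complex II, 8 to complex III, 15 to complex IV and 17 to complex V. Ndufa4 carries a complex I name but is now counted with complex IV, and it was kept apart. Atp5s and Atp5sl matched the rule by name and are not subunits of the ATP synthase. Cox4i1, Cyc1 and Cycs did not match it.

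Oxidative phosphorylation takes place in the inner mitochondrial membrane. Complexes I and II pass electrons from NADH and succinate to ubiquinone, complex III passes them to cytochrome c, and complex IV passes them to oxygen. Complexes I, III and IV pump protons as they do so, and complex V, the ATP synthase, uses the returning protons to make ATP. All complexes except II combine nuclear subunits with a few made from mitochondrial DNA, so their nuclear genes are transcribed from many chromosomes and must supply parts in fixed ratios. Neurons depend on this supply for ion pumping, and the unmyelinated C-fibres of Trpv1-positive cells run long distances to the viscera.

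Each of the 5 groups had 2 pools. In the Trpv1 selection, neurons came from Trpv1-tdTomato mice, in which Cre from the Trpv1 locus switches on a red reporter at Rosa26, so a cell that expressed Trpv1 at any time stays red. Red neurons were picked from the nodose ganglion and from the jugular ganglion, and neurons without red fluorescence were picked from the nodose ganglion. In the capsaicin selection, neurons came from wild-type C57BL/6 mice and were picked after a calcium assay in which they were exposed to capsaicin. Nodose neurons taken there had responded to α,β-methylene ATP and capsaicin, jugular neurons to capsaicin only. Neurons of all groups were enzymatically dissociated and lysed without RNA extraction. No age is given. The paper pooled more cells in each Trpv1-positive pool than in each Trpv1-negative or capsaicin-selected pool. It took the neurons of the Trpv1 selection, red or not, from 2 mice. The labels do not say that the pools of a group came from different animals, so the p-values below measure the spread between pools, which may be technical.

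The 6 pools of the Trpv1 selection held 148452506 to 167704327 counts and the 4 of the capsaicin selection 17666710 to 30810863. In CPM, the count scaled to the size of the library, 3 counts corresponded to between 0.0179 and 0.0202 in the former and between 0.0974 and 0.170 in the latter. The 3 nodose markers summed to at least 611 CPM in each nodose pool and at most 1.31 CPM in each jugular pool. The jugular markers Prdm12 and Tac1 summed to at least 348 CPM in each jugular pool and at most 1.19 CPM in each nodose pool. Trpv1 was at 22.1 CPM or more in the 8 pools selected for it and at most 0.0431 CPM in the pools without red fluorescence. Among the 8 it was lowest in the Trpv1-positive jugular pools, at 22.1 and 31.9 CPM, against 250 and 146 CPM in the Trpv1-positive nodose pools. Markers of red blood cells were at 0, and of the 8 macrophage genes only Cd68 was detected, with its highest level, 93.8 CPM, in a capsaicin-selected nodose pool. The 4 endothelial genes were at 0 in the capsaicin selection and reached 28.5 CPM, through Kdr, in a Trpv1-positive nodose pool. The 5 fibroblast genes summed to no more than 38.1 CPM among Trpv1-selection pools, and in a capsaicin-selected jugular pool Dcn alone gave 296 CPM. The 12 satellite glia and Schwann cell genes, mostly through Apoe, summed to 3726 to 5072 CPM in the first selection, and in the second they summed to 2014 to 2592 CPM with Sox10 at 0. Levels are given throughout as CPM after scaling the 10 pools to each other.

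Most of the 80 genes were plainly expressed. In all 10 pools, 67 stood at 10 CPM or more and 39 at 100 CPM or more, while 6 never reached 10 CPM. Those 6 were not tested. Cox7b2 and Cox8b had no count in any pool. Cox6a2, known from heart and skeletal muscle, had 63 counts in 1 capsaicin-selected nodose pool and 2 in a Trpv1-negative pool. Cox6b2, known from testis, had 936 counts in 1 Trpv1-positive jugular pool and 122 in 1 Trpv1-negative pool. Cox8c had 39 counts in 1 Trpv1-positive nodose pool and 1 in a jugular pool. Ndufs5, an accessory complex I subunit, had 3 counts in all (1 and 2 in separate pools), and 31.1% of the 50-base stretches of its transcripts also occur in other genes. How reads with several matches were counted is not given in the sources used here. Such stretches made up more than 10% of the transcripts of 24 members and more than 50% of those of Atp5l (84.8%) and Atp5o (50.3%), so the levels of those genes are uncertain.

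**Figure D1:**
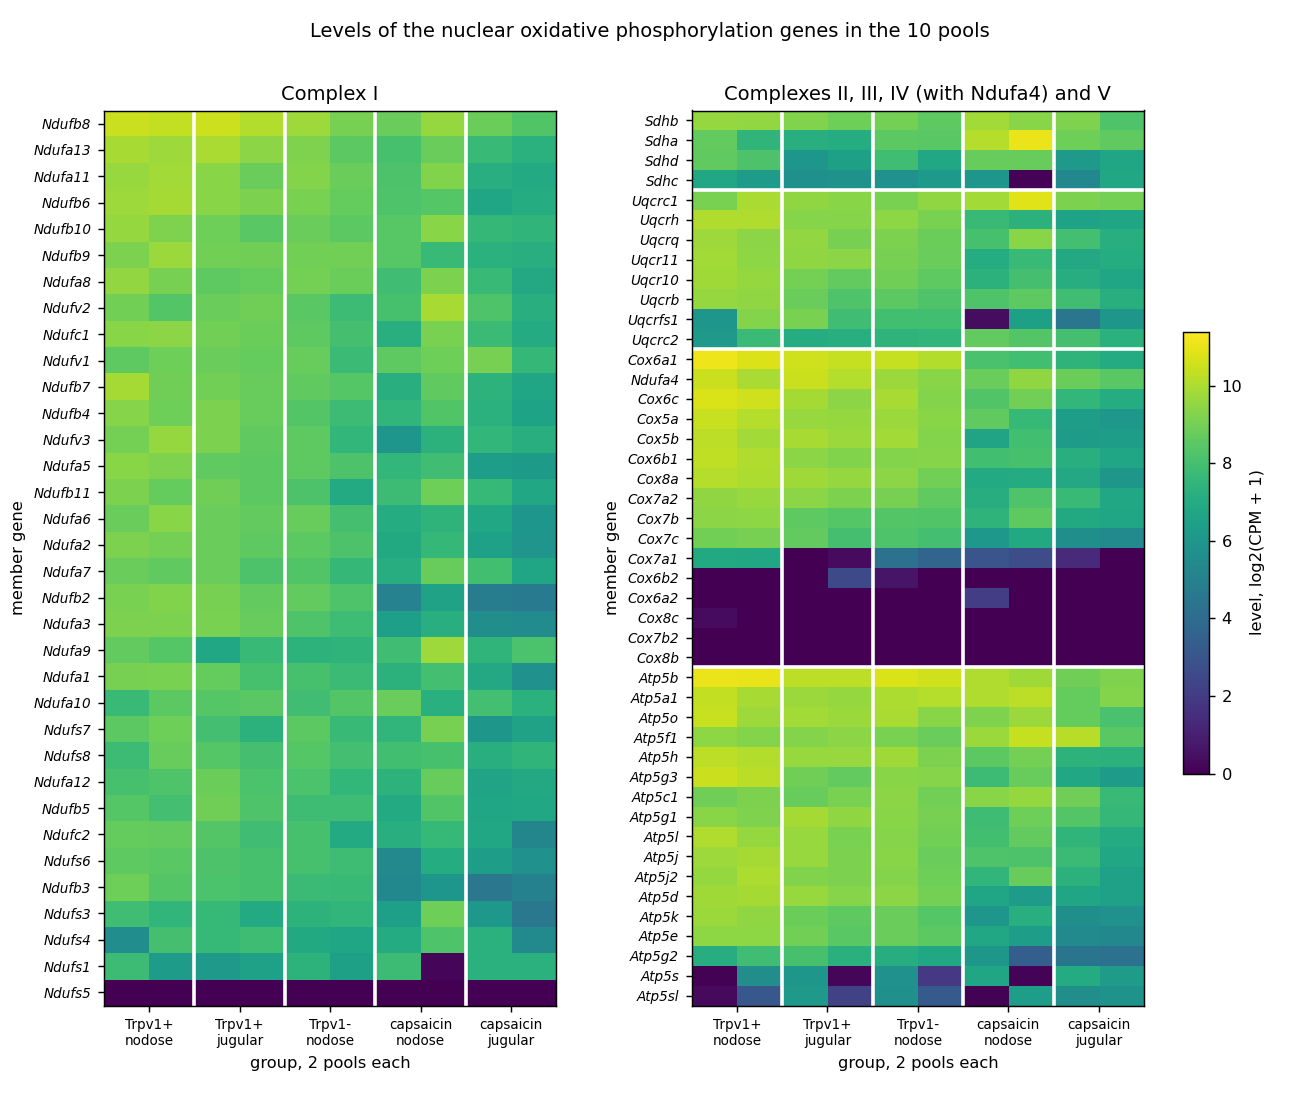
Level of the genes, all but 1 of the 80, as log2(CPM + 1) in the 10 pools (columns, by group), with complex I on the left and complexes II to V on the right, each ordered by decreasing mean. Most rows are darkest in the jugular capsaicin pools, and isolated dark cells in the nodose capsaicin columns mark genes such as Ndufs1 and Sdhc that were near 0 in 1 pool of the pair.

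Transcript length was taken as the median over all annotated protein-coding transcripts of a gene. It can lie far from the length of the main transcript, and values per kb move with it. Divided by this length, the highest mean levels over the 10 pools belonged to small subunits. Ndufa4 stood at 1836 CPM per kb. Cox6a1, a small subunit of cytochrome c oxidase, stood at 1767 CPM per kb, and Ndufb8, an accessory subunit of complex I, at 1582 CPM per kb. In complex III the highest was Uqcrc1, a core protein, at 1504 CPM per kb. Its length by this measure was 533 bases, and its place depends on that. The lowest was Uqcrfs1, the Rieske iron-sulfur protein, at 157 CPM per kb. In complex V the highest was Atp5o, the oligomycin sensitivity-conferring protein, at 1085 CPM per kb, and the lowest Atp5sl at 17.0 CPM per kb. Complex II had the lowest median: its highest member was Sdhb, the iron-sulfur subunit, at 521 CPM per kb, and its lowest was Sdhc, a membrane anchor, at 77.8 CPM per kb. The medians over the members of a complex were 399 CPM per kb for complex I, 247 for complex II, 983 for complex III, 473 for complex IV and 713 for complex V. That of complex IV takes in Cox6a2, Cox6b2, Cox7b2, Cox8b and Cox8c, which never reached 10 CPM and were not tested. The median of its tested members is higher, so 473 does not place them below complexes III and V.

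The level of the set as a whole differed between the groups, and most members shared the group of their highest mean and, counted separately, that of their lowest. Of the 74 members tested, 51 had their highest group mean in the Trpv1-positive nodose pools and 60 had their lowest in the jugular capsaicin pools. Within the Trpv1 selection, 59 were highest in the Trpv1-positive nodose pools and 58 were lowest in the Trpv1-negative nodose pools. Summed over all 80 genes, the Trpv1-positive nodose pools stood at 51730 and 48568 CPM, the Trpv1-positive jugular pools at 40058 and 33458, and the Trpv1-negative nodose pools at 35167 and 27710. The capsaicin-selected nodose pools stood at 19916 and 30479 CPM and the jugular ones at 14535 and 10447. Nodose pools were above jugular pools in each selection without overlap, while the Trpv1-negative nodose and Trpv1-positive jugular pools overlapped. In pools of cells, fewer cells of a type and less RNA per cell cannot be told apart.

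By complex, the ratio of nodose to jugular mean sums in the Trpv1 selection ran from 1.27 for complex I to 1.85 for complex II, with 1.35 for complex III, 1.53 for complex IV and 1.41 for complex V. In the capsaicin selection it ran from 1.85 for complex V to 2.76 for complex II. As log2 ratios, the values for complexes I to V in the capsaicin selection were 1.0, 1.46, 1.04, 1.09 and 0.89, and they were 0.25, 0.79, 0.31, 0.42 and 0.23 when pools were scaled to total counts. The pools did not overlap for any of the 5 complexes in either selection on the scale used here. With total counts, those of complex V overlapped in the capsaicin selection (5344 and 3576 CPM in nodose against 4176 and 3453 CPM in jugular pools). For Ndufa4, in contrast, nodose pools (1416 and 980 CPM) and jugular pools (1440 and 1126 CPM) overlapped in the Trpv1 selection, and so did its pools in the capsaicin selection (445 and 737 against 459.9 and 359.7 CPM). The 76 cytosolic ribosomal protein genes, another set of short and abundant housekeeping transcripts, had a nodose to jugular ratio of 1.05 in the Trpv1 selection, where the pools overlapped, and of 1.30 in the capsaicin selection, where they did not. The summed citrate cycle and glycolysis genes had ratios of 1.94 and 1.88 in the capsaicin selection, close to the 2.02 of all members and also without overlap. With total counts, the pools of all 3 of these other lists overlapped there.

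Within complex I, the 7 core subunits, which carry the flavin and the iron-sulfur clusters, summed to 2209 and 2307 CPM in the Trpv1-positive nodose pools and to 1991 and 1788 CPM in the jugular pools. In the capsaicin selection they summed to 1423 and 2716 CPM against 1450 and 839 CPM, and the pools overlapped. The 28 accessory subunits, which surround the core, summed to 15795 and 15290 CPM against 13492 and 10814 CPM in the Trpv1 selection and to 5167 and 9456 CPM against 4102 and 2993 CPM in the capsaicin selection. Within complex V, the 5 subunits of the catalytic F1 head summed to 5553 and 5240 CPM against 3759 and 3548 CPM, and to 2996 and 3018 CPM against 1530.2 and 1554 CPM. The 4 genes of the peripheral stalk, which holds the head still, summed to 4154 and 3494 CPM against 3138 and 2873 CPM, and to 2079 and 3004 CPM against 1954 and 903 CPM. Of these 4 parts, the complex I core in the capsaicin selection was the only one whose nodose and jugular pools overlapped on this scale. Scaled to total counts, the core overlapped in the Trpv1 selection too (2242 and 2472 against 2266 and 2131 CPM), and the F1 head (2589 and 1352 against 1420.0 and 1703 CPM) and the stalk (1796 and 1345 against 1813 and 989 CPM) overlapped in the capsaicin selection.

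**Figure D2:**
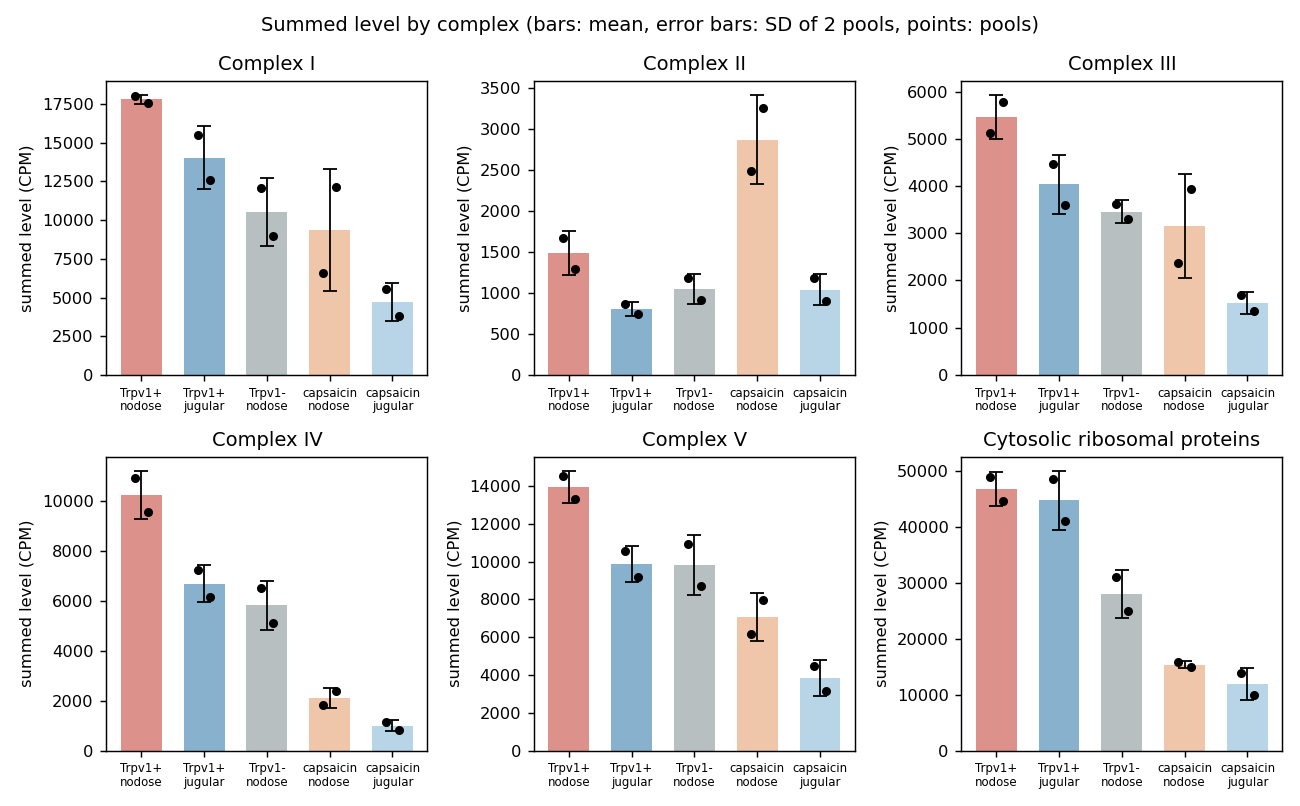
Summed CPM of complexes I to V and of the cytosolic ribosomal protein genes in each group (bars, mean; error bars, SD of 2 pools; points, pools). For complexes I to V the Trpv1-positive nodose pools lie above the Trpv1-positive jugular and Trpv1-negative nodose pools, and complex II is the only one of the 5 that is highest in the capsaicin-selected nodose pools.

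The question of the first comparison was how nodose and jugular neurons that carry the Trpv1 reporter differ. Tested across 10990 genes with edgeR's quasi-likelihood test, no member was called, where a call needed an adjusted p up to 0.1, a change of 2-fold or more and 10 CPM in both pools of a group. Of all genes tested, 0.318% were called. At an unadjusted p under 0.05, 21 of the 74 members were higher in nodose neurons and 0 were lower, against 5.37% and 6.51% of all genes. The log2 fold change was positive for 62 members and negative for 12, with 50.8% positive over all genes. Its median was 0.40, compared with 0.03 over all genes. The nodose pools lay above the jugular pools without overlap for 43 members (20.5% of all genes) and below them for 1, Atp5g1 (21.6% of all genes). With DESeq2, 1 member was called, Cox7a1, against 3.55% of all genes tested there. Its standard errors were larger for most members (for Atp5g3, 1.43 against 0.20 in edgeR). The edgeR SE, here and below, was derived from the F statistic and is not the same measure. In DESeq2 most members had a standard error above the size of their log2 fold change. The count at an unadjusted p under 0.05 thus depends on the tool. Scaled to total counts alone, the member median was 0.25 and that of all genes was -0.13, so the distance between them changed little.

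By unadjusted p, Atp5g3, Atp5b and Cox7a1 led this comparison. Atp5g3 encodes the c subunit of the ATP synthase, the protein that forms the rotating ring in the membrane. Its nodose pools held 1419 and 1188 CPM and its jugular pools 479.7 and 402 CPM. The nodose pools were thus well above the jugular ones, 2.94-fold (log2 fold change 1.56, SE 0.20, edgeR adjusted p = 0.136). Atp5b, the catalytic β subunit, stood at 2170 and 2073 CPM against 1221 and 1223 CPM, with little spread in either group (log2 fold change 0.79, SE 0.13, edgeR adjusted p = 0.210). Cox7a1, the isoform of subunit VIIa typical of heart and skeletal muscle, stood at 121 and 111 CPM against 0.021 and 0.28 CPM, the latter from 4 and 55 counts. Its log2 fold change was 9.59 (SE 1.89, edgeR adjusted p = 0.315; DESeq2 adjusted p = 2.77e-06).

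On the lower side, the 3 members with the smallest p were Atp5g1 (log2 fold change -0.40, SE 0.22), Atp5sl (-3.24, SE 2.55) and Ndufb5 (-0.43, SE 0.35), with edgeR adjusted p of 0.620, 0.798 and 0.806. By complex, the log2 fold change was positive for 28 of 34 tested members of complex I, 4 of 4 of complex II, 7 of 8 of complex III, 10 of 10 of complex IV and 13 of 17 of complex V. The pools did not overlap, with nodose higher, for 18, 4, 3, 9 and 9 of them. The median was 0.96 in complex II and 0.65 in complex IV, against 0.38 in complex I, 0.22 in complex III and 0.37 in complex V.

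**Figure D3:**
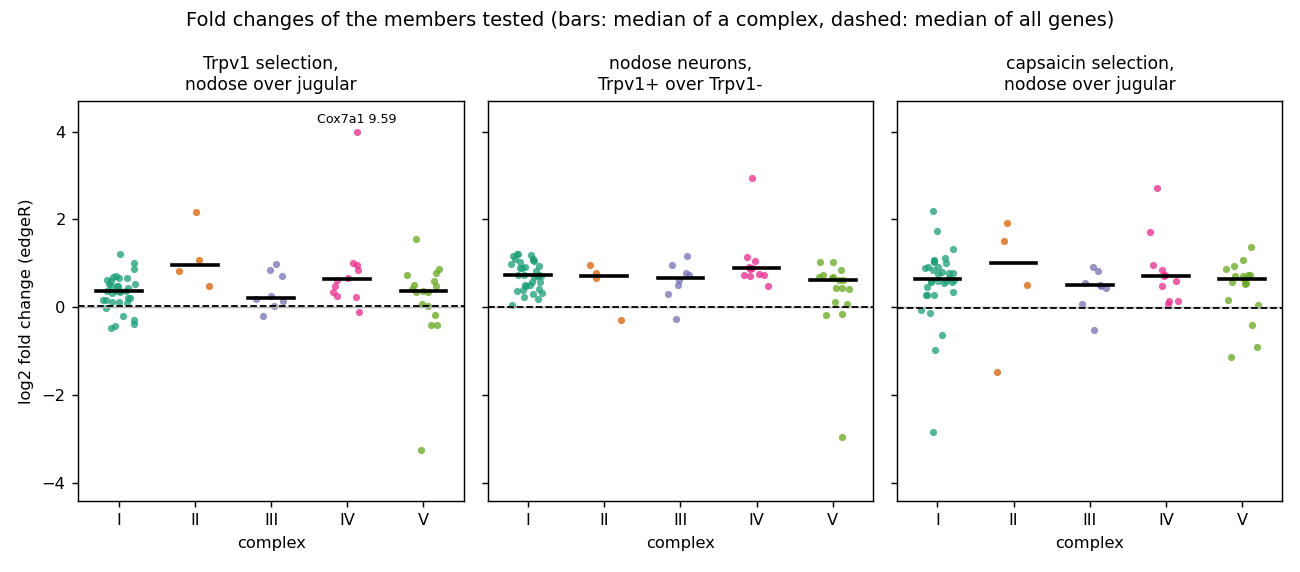
Log2 fold change of each tested member (points) by complex in 3 comparisons: nodose over jugular in the Trpv1 selection, Trpv1-positive over Trpv1-negative nodose neurons, and nodose over jugular in the capsaicin selection. Bars are medians of a complex, the dashed line is the median of all genes, Ndufa4 is drawn with complex IV but left out of its median, and Cox7a1 (9.59 in the first panel) is drawn at the edge. Most points lie above the dashed line in each panel.

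The second selection, by capsaicin response, asked the same question in other pools. No member was called with edgeR or with DESeq2, against 0% and 6.15% of all genes tested. At an unadjusted p under 0.05 in edgeR, 2 members were higher in nodose neurons (2.57% of all genes) and 0 lower (11.5% of all genes). The log2 fold change was positive for 64 of 74 members, with 49.5% positive over all genes, and its median was 0.61 against -0.02. The nodose pools lay above the jugular pools for 51 members (18.8% of all genes) and below them for 1 (23.4% of all genes). Other genes separated the same pools. Atf3, a transcription factor induced by nerve injury and stress, stood at 932 and 998 CPM in the nodose pools, against 234 and 206 CPM in the jugular ones, and Malat1, a nuclear RNA, at 11038 and 31249 against 6821 and 5958 CPM. The 7 genes of the RNA and stress list summed to 14057 and 32628 CPM against 7395 and 7212 CPM, most of it Malat1. Rn45s, Fos and Jun of that list overlapped between these pools. Hspa1a was higher in the nodose pools (52.4 and 17.0 against 15.1 and 16.3 CPM) and Hspa1b lower (0 and 0.0725 against 4.86 and 4.60 CPM). The 5 fibroblast genes summed to 47.6 and 0 CPM against 296 and 51.5 CPM, with Col1a1, Lum and Col3a1 at 0 in all 4 pools. The part of these in the members' difference was not tested.

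The 2 members were Sdha and Sdhd, both of complex II. Sdha, the flavoprotein that oxidises succinate, stood at 1106 and 2163 CPM in the nodose capsaicin pools and at 478 and 387 CPM in the jugular ones (log2 fold change 1.52, SE 0.53, edgeR adjusted p = 0.352). Sdhd, a membrane anchor of complex II, stood at 425 and 424 CPM against 70.4 and 104 CPM (log2 fold change 1.92, SE 0.76, edgeR adjusted p = 0.355). For both genes each nodose pool was above each jugular pool. With DESeq2 the standard error of each was larger, at 2.31. Ndufs7, an iron-sulfur core subunit of complex I, followed at 179 and 541 CPM against 65.5 and 93.4 CPM (log2 fold change 1.74, SE 0.91, edgeR adjusted p = 0.557). On the lower side, Ndufv3 and Sdhc had log2 fold changes of -0.96 and -1.46 with SE of 1.0 and 2.69.

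Scaling had a larger part in the capsaicin selection. With total counts alone, the members summed to 17211 and 13651 CPM in nodose neurons and to 13488 and 11451 CPM in jugular neurons. The member median was then 0.29 and that of all genes -0.31, so the members remained above the other genes by a similar distance while the ratio of the sums was smaller. The pools themselves varied more as well. Between the nodose capsaicin pools, the median absolute log2 difference of members was 0.86, compared with 0.28 between the Trpv1-positive nodose pools. Over all genes at 10 CPM or more these values were 3.24 and 1.20.

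The selections were made from separate pools and can be set side by side. For 36 of the 74 members (48.6%), the nodose pools were above the jugular pools without overlap in each selection, compared with 468 of 7741 genes tested in both (6.05%). The reverse order in each selection held for 0 members and for 6.92% of genes. When all 8 pools were fitted together with the selection as a covariate, Atp5g3 was the only member called, against 0.825% of all genes called in either direction and 0.384% called higher. Its log2 fold change was 1.51 (SE 0.32, edgeR adjusted p = 0.0979). It was at 221 and 426 CPM in the nodose and 112 and 78.8 CPM in the jugular capsaicin pools, so each nodose pool was above its selection's jugular pools. This call was near the threshold: it was lost with 6 of the 8 pools left out in turn. It was also lost with the total-count scaling, with DESeq2's size factors and with the replicate number as a block. The log2 fold change itself was between 1.41 and 1.65 with 1 pool left out, 1.20 with total counts and 1.68 with DESeq2's size factors.

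Sdhd was next, with a log2 fold change of 2.1 (SE 0.47, edgeR adjusted p = 0.116). It stood at 386 and 297 CPM in the Trpv1-positive nodose pools and at 62.0 and 88.5 CPM in the jugular ones. Its lowest nodose pool of either selection was above its highest jugular pool of either, an order it shared with Atp5a1, Sdhb and Cox7a1. That held for 4 of the 74 members (1.98% of all genes). DESeq2 called 7 members in this fit, all higher in nodose neurons: Atp5g3, Sdhd, Cox6c, Sdha, Ndufs7, Ndufa5 and Cox7a1, where 2.40% of all genes were called higher. The log2 fold change was positive for 66 members (45.8% of all genes), with a median of 0.57 against -0.16 over all genes.

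The 80 genes lie on 19 chromosomes, with at most 9 on any of them. The start of transcription of 65 of the 80 genes could be matched to RefSeq, in 70 windows of 250 bases before to 50 bases after the start (build GRCm38.p6). Motifs of factors known for nuclear respiratory genes were searched in these windows on both strands. The NRF1 motif, GCGCA and GCGC with any base between them, occurred in 25.7% of the members' windows and in 4.60% of all 32851 windows. CCGGAAG, the core of the ETS/GABP (NRF2) motif, occurred in 22.9% and 8.86%. AANATGGCG, the YY1 motif, occurred in 14.3% and 2.38%. At least 1 of the 3 was present in 54.3% of members' windows and 14.2% of all windows. Among members it was present in 18 of 33 windows of complex I, 3 of 3 of complex II, 3 of 5 of complex III, 3 of 12 of complex IV and 11 of 16 of complex V. A match is a description of the sequence and not evidence of binding.

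The windows of Atp5g3, Sdhd and Cox7a1 are printed because the first 2 led the fit of both selections and Cox7a1 was the member DESeq2 called in the Trpv1 selection. They were chosen after their values were seen. Capitals mark a motif match. The Atp5g3 gene lies on chromosome 2 from 73908447 to 73911326 on the minus strand, Sdhd on chromosome 9 from 50596357 to 50603812 on the minus strand, and Cox7a1 on chromosome 7 from 30184144 to 30186078 on the plus strand (mm10, GENCODE vM21). Their windows are chr2:73911277-73911576, chr9:50603800-50604099 and chr7:30183921-30184220, given 5′ to 3′ on the strand of the gene.
Atp5g3: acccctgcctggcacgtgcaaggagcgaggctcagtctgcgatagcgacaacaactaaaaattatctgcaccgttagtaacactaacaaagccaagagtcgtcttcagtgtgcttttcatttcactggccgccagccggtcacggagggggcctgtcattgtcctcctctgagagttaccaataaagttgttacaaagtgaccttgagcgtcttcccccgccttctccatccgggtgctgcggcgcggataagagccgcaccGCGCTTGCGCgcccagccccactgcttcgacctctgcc
Sdhd: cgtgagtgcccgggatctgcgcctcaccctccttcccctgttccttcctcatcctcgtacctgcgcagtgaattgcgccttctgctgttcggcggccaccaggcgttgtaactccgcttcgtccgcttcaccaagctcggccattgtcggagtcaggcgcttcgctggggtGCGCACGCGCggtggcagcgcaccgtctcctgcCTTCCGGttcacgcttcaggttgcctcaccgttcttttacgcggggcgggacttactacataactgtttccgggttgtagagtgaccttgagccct
Cox7a1: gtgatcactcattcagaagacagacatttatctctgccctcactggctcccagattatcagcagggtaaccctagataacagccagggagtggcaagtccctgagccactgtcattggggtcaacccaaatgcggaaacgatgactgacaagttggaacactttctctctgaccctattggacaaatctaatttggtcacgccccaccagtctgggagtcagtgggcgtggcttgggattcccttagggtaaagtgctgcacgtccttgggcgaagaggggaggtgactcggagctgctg
The Atp5g3 window held 1 NRF1 match as its reverse complement, beginning 13 bases after the start. The Sdhd window held an NRF1 match beginning 79 bases before the start and an ETS/GABP match as its reverse complement beginning 46 bases before it. The Cox7a1 window, like those of Cox7a2 and Atp5g1, held none of the 3 motifs.

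Cox7a1 and Cox7a2 encode alternative forms of the same subunit of complex IV. Cox7a2, the form found in most tissues, was at 729 and 785 CPM in the Trpv1-positive nodose pools and at 689 and 569 CPM in the jugular ones. Taken per kb of transcript, Cox7a1 made up 19.9% and 17.5% of the sum of both in the Trpv1-positive nodose pools, 0.00465% and 0.0726% in the jugular pools, and 4.97% and 4.38% in the Trpv1-negative nodose pools. In the capsaicin selection it made up 7.13% and 2.62% in nodose pools and 1.11% and 0% in jugular pools, where it stood at 7.02 and 5.43 CPM against 1.56 and 0 CPM. The muscle-type form was thus highest in the Trpv1-positive nodose pools, intermediate in the other nodose groups and lowest in both jugular groups. Its log2 fold change in the capsaicin selection was 2.72 (edgeR adjusted p = 0.971), with 1 of the jugular pools at 0 counts. Cox6a2 and Cox8b, which are also known from muscle, did not follow it, being at 0 in both Trpv1-positive nodose pools.

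The c ring of the ATP synthase is encoded by Atp5g1, Atp5g2 and Atp5g3, whose mature proteins are the same. The shares per kb that follow rest on median transcript lengths of 2675.5, 683 and 718.5 bases. Atp5g1 was thus divided by far the largest value, and the size of each share depends on these lengths. Atp5g3 contributed 81.5% and 74.5% of their summed level per kb in the Trpv1-positive nodose pools, against 47.5% and 53.4% in the jugular pools. In the capsaicin selection it contributed 63.0% and 75.8% in nodose and 50.8% and 52.7% in jugular pools. The Trpv1-negative nodose pools were at 67.6% and 70.9%. By this measure every nodose pool had a larger Atp5g3 share than every jugular pool. The Atp5g1 share went the other way. It was 10.2% and 9.95% in Trpv1-positive nodose pools, 24.5% and 25.8% in the jugular ones, 17.6% and 22.3% in the nodose capsaicin pools, and 39.5% and 34.2% in the jugular capsaicin pools. In CPM, Atp5g1 stood at 661 and 591 in the Trpv1-positive nodose and 924 and 724 in the jugular pools. In the capsaicin selection it stood at 229 and 467 in nodose and 324 and 190.2 in jugular pools, which overlapped (log2 fold change 0.047), so there the shares differed without a separation of its own level. Atp5g2 held between 1.87% and 28% over the 10 pools. Without regard to length, Atp5g1 had the highest mean of the 3 genes in both jugular groups. It stood at 824 CPM in the Trpv1 selection and 257 CPM in the capsaicin selection, where Atp5g3 stood at 441 and 95.4 CPM. In the nodose groups the means were 626 and 348 CPM for Atp5g1 and 1303 and 324 CPM for Atp5g3. The summed CPM of the 3 genes, without regard to length, was 2216 and 2014 in the Trpv1-positive nodose and 1673 and 1275 in the jugular pools, and thus differed less than Atp5g3 did.

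**Figure D4:**
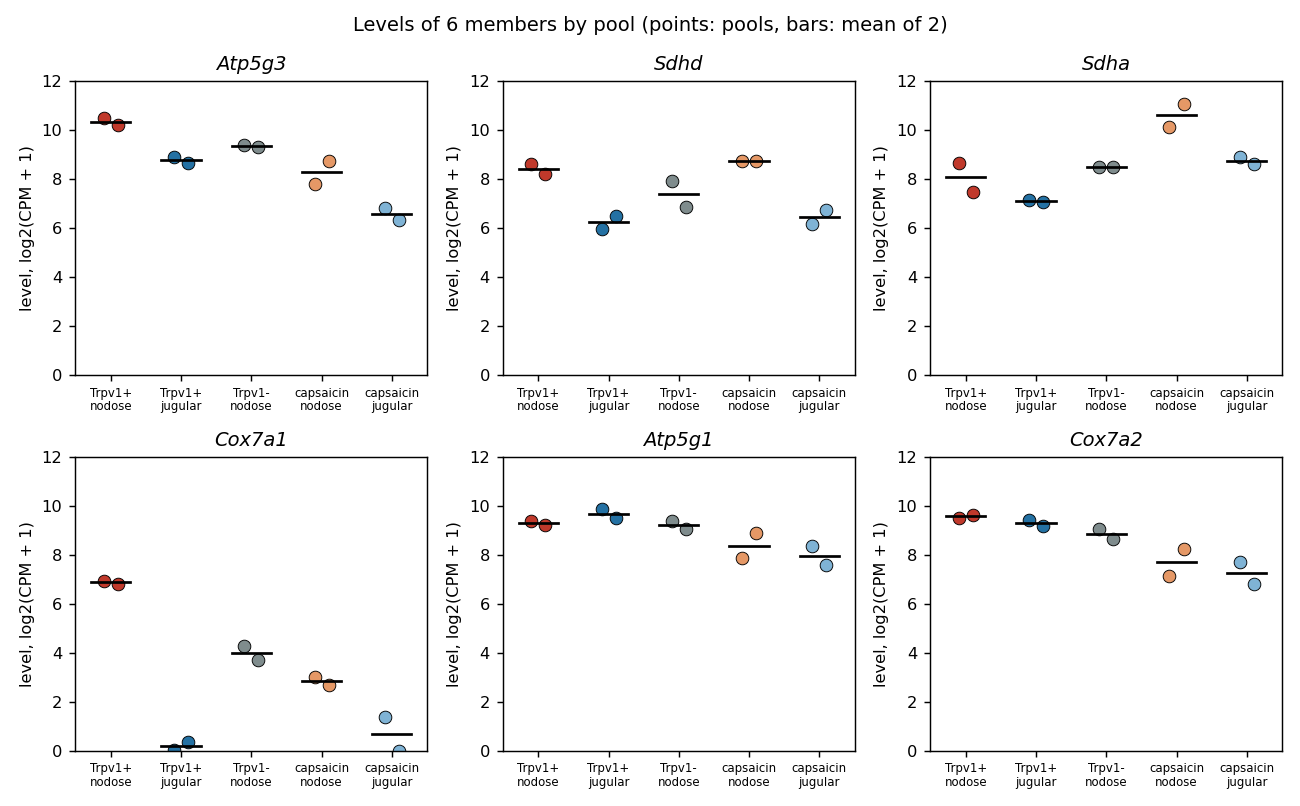
Level of Atp5g3, Sdhd, Sdha, Cox7a1, Atp5g1 and Cox7a2 as log2(CPM + 1) in each of the 10 pools (points), by group. Atp5g3, Sdhd and Cox7a1 are higher in the nodose than the jugular pools of each selection, Sdha is highest in the capsaicin-selected nodose pools, and Cox7a2 shows no separation of nodose and jugular pools in the capsaicin selection.

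The comparison within the nodose ganglion asked how neurons with the Trpv1 reporter differ from those without it. No member was called with edgeR or DESeq2, against 0.0527% and 2.69% of all genes. At an unadjusted p under 0.05 in edgeR, 35 of the 74 members were higher in Trpv1-positive neurons and 0 were lower, against 4.53% and 6.57% of all genes. The log2 fold change was positive for 69 members (50.4% of all genes), with a median of 0.72 against 0.01 over all genes. The Trpv1-positive pools lay above the Trpv1-negative pools for 56 members (18.4% of all genes) and below them for Atp5sl only (22.4% of all genes). The complex medians were 0.74 in I, 0.72 in II, 0.67 in III, 0.89 in IV and 0.62 in V. DESeq2 gave most members a larger standard error (for Atp5g3, 1.37 against 0.20 in edgeR). For most it was above the size of the DESeq2 log2 fold change, which was 1.08 for Atp5g3. The count at an unadjusted p under 0.05 thus depends on the tool. This comparison shares the Trpv1-positive nodose pools with the first one, so their directions are not independent. Trpv1-positive pools also held more cells than Trpv1-negative ones, and the parts of reporter and cell number cannot be told apart.

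Atp5g3 had the smallest p, with 671 and 634 CPM in Trpv1-negative pools, between those of the Trpv1-positive nodose and jugular pools (log2 fold change 1.02, SE 0.20, edgeR adjusted p = 0.366). Cox7b, a small subunit of complex IV, stood at 693 and 704 CPM in Trpv1-positive and 329 and 318 CPM in Trpv1-negative pools (log2 fold change 1.14, SE 0.23, edgeR adjusted p = 0.366). Uqcrb, the ubiquinone-binding protein of complex III, stood at 762 and 738 CPM against 368 and 306 CPM (log2 fold change 1.18, SE 0.25, edgeR adjusted p = 0.366). In these 3 genes each Trpv1-positive pool was above each Trpv1-negative pool. At the other end were Atp5sl (log2 fold change -2.94, SE 2.36), Sdha (-0.29, SE 0.45) and Atp5c1, the γ subunit (-0.15, SE 0.28). For Sdha, a single Trpv1-positive pool (407 CPM) was above and the other (175 CPM) below the Trpv1-negative pools (362 and 359 CPM).

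The ribosomal protein genes gave similar values in this comparison. Of 75 tested, edgeR called 0, 72 had a positive log2 fold change and 36 were higher at an unadjusted p under 0.05, where DESeq2 called 0 and had 0 at that p, with a median of 0.79, close to the 0.72 of the members. In the nodose to jugular comparisons their medians were 0.08 (Trpv1 selection) and 0.01 (capsaicin selection), where those of the members were 0.40 and 0.61. The ribosomal RNA precursor Rn45s took 8.54% to 10.3% of counts in the Trpv1-positive nodose pools and 2.65% to 3.38% in the other pools of that selection. The part of RNA content or library composition in the difference was not tested. Scaled to total counts, the member median was 0.36 against -0.35 over all genes. With the trend over transcript length removed, it was 0.32 against -0.03. Without the first Trpv1-negative pool it was 1.0, and without the second it was 0.50.

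Whether the nodose to jugular difference itself differed between the selections was tested as an interaction, the Trpv1-selection effect minus the capsaicin-selection effect. No member was called by edgeR or DESeq2, against 0% and 7.46% of all genes, and 0 members had an unadjusted p under 0.05 in edgeR. The log2 interaction was positive for 28 members and negative for 46 (56.4% of all genes were positive), with a median of -0.17 against 0.44 over all genes. Cox7a1 had the smallest p, with an interaction of 6.99 (SE 3.53, edgeR adjusted p = 0.519), which became -2.34 without the first jugular capsaicin pool. Without the first nodose capsaicin pool, 2 members were called, among them Ndufs1, which was at 0.145 CPM in the pool that remained.

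Some genes were near 0 in 1 capsaicin-selected pool and well expressed in others. At most 3 counts in 1 pool together with at least 10 CPM in another was found for 6 members, among them Ndufs1, Atp5s and Sdhc in the second nodose capsaicin pool, Atp5sl in the first, and Cox7a1 in the second jugular capsaicin pool. Ndufs1, the large iron-sulfur subunit of complex I, went from 226 to 0.145 CPM between the nodose capsaicin pools. Uqcrfs1 was at 0.310 CPM (6 counts) and 87.1 CPM in the same pools, and at 62.9 and 619 CPM in the Trpv1-positive nodose pools. Atp5s was uneven in the deep pools too, at 0.051 and 49.2 CPM in Trpv1-positive nodose and 65.5 and 0.10 CPM in jugular pools. Most members differed less between the pools of a group than all genes at 10 CPM or more did. A difference of over 4-fold between the pools of a group was seen for 4.11% of members and 36.2% of all genes in the Trpv1-positive nodose group, and for 11.0% and 60.1% in the nodose capsaicin group.

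The largest differences were between the selections. Between the capsaicin and the Trpv1 selection, with the ganglion as a covariate, 49 of the 74 members were called lower and 1 higher in the capsaicin selection, against 4.99% and 2.34% of all genes (7.33% in either direction). The median log2 fold change was -2.03, compared with -0.96 over all genes, a distance of -1.07. The 8 pools did not overlap for 40 members, all lower in the capsaicin selection (13.3% of all genes). The members took 3.99% to 5.25% of all counts in Trpv1-positive neurons and 1.15% to 1.72% of those in neurons picked by capsaicin. The selection, mouse strain, sequencing core, depth, number of cells in a pool and the calcium assay changed together, and their parts cannot be told apart.

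The calls were spread unevenly over the complexes, whose difference from each other was not tested. Of complex I, 22 of 34 members were called lower, all of them accessory subunits (22 of 27), while 0 of the 7 core subunits were called. In complex III, 5 of 8 were called lower, in complex IV 9 of 10, and in complex V 12 of 17. Of complex II, 0 of 4 were called lower and Sdha was called higher. These parts also differ in transcript length, by the medians described below. The core subunits run from 651 bases (Ndufs1) to 1436 (Ndufv1) and complex II from 815 (Sdhc) to 1811 (Sdha). All of these lie above the member median of 648 bases, while accessory subunits run from 382 (Ndufa6) to 2413 (Ndufb2). The part of length in the spread over complexes was not tested. The median log2 fold changes were -2.01, -0.42, -2.12, -2.99 and -2.32 for complexes I to V. As a share of the members' summed CPM, complex II took 2.15% to 3.35% in the pools of the Trpv1 selection and 8.11% to 12.5% in those picked by capsaicin. Complex IV took 18.0% to 21.2% in the former and 7.85% to 9.24% in the latter. Neither range overlapped. Complexes I, III and V held 32.4% to 39.9%, 9.91% to 13.0% and 26.2% to 31.5% over the 10 pools.

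Among the members called, Ndufb2, Ndufb3, Cox8a, Atp5e and Cox5b had the largest decreases. Uqcrfs1, which was not called, had a log2 fold change of -3.66 with an SE of 1.25. Ndufb2, an accessory subunit of complex I, was at 558, 606, 528 and 400 CPM in the Trpv1-positive pools and at 32.6, 93.0, 27.6 and 25.6 CPM in the capsaicin-selected pools (log2 fold change -4.22, SE 0.47, edgeR adjusted p = 0.000586). Ndufb3 (-3.69, SE 0.51), Cox8a (-3.66, SE 0.34), Atp5e, the ε subunit (-3.61, SE 0.41) and Cox5b (-3.60, SE 0.36) followed on the log2 scale, with edgeR adjusted p between 0.000258 and 0.00184. None of these 5 genes overlapped between the selections. Sdha was at 407, 175, 142 and 131 CPM in the Trpv1-positive pools and at 1106, 2163, 478 and 387 CPM in the capsaicin-selected pools (log2 fold change 1.54, SE 0.38, edgeR adjusted p = 0.0454). Its ranges overlapped across ganglia but not within one. The call was lost when any of 4 pools was left out, at a log2 fold change of 1.28 to 1.60.

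The calls were also set against transcript length. The members have a median transcript length of 648 bases, compared with 1801 over all genes, from 321.5 bases for Atp5k to 2675.5 for Atp5g1. Each length is the median over the annotated protein-coding transcripts of a gene, so a gene's class depends on the variants annotated. Of the 11 tested members of up to 500 bases, 10 were called lower, and of the 32 between 500 and 750 bases, 28 were. Of the 13 between 750 and 1000 bases, 6 were called lower, and of the 12 between 1000 and 1500 bases, 2 were. The 6 longest members, above 1500 bases, did not continue this order: 3 were called lower (Ndufb2, Atp5b and Atp5g1) and 1 higher (Sdha), with a median of -1.23 against -0.74 in the class before. Ndufb2 and Atp5g1 were placed there by medians of 2413 and 2675.5 bases, which may not be those of their main transcripts. Over all genes at 10 CPM or more, the median log2 fold change was -2.20 up to 500 bases, -1.48 between 500 and 750 bases, -0.88 between 1000 and 1500 bases and -0.17 above 3000 bases. Across the 74 members, the log2 fold change and the log2 length had a Pearson r of 0.41 and a Spearman rho of 0.44, a description over genes that share the same libraries.

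With the trend over length removed, 30 members were called lower and 2 higher, against 3.44% and 2.21% of all genes, and the median was -1.04 against -0.89 over all genes. Of these calls, 30 were also made without that step. The 2 made only there were Atp5a1 (log2 fold change -1.16) and Uqcrc1 (1.0). Both depend on the median lengths used, 2572.5 and 533 bases. The distance of the member median from that of all genes was thus -1.07 as deposited and -0.15 with the length trend removed. In the other short and abundant set, 64 of 75 ribosomal protein genes were called lower, with a median of -2.68. The 17 glycolysis genes had 1 called higher and 2 lower, with a median of -0.69, and the 17 citrate cycle genes 1 higher and 0 lower, with a median of -0.29. DESeq2 called 42 members against 15% of all genes, 41 of them shared with edgeR, at a median of -1.50 against -0.17 over all genes.

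**Figure D5:**
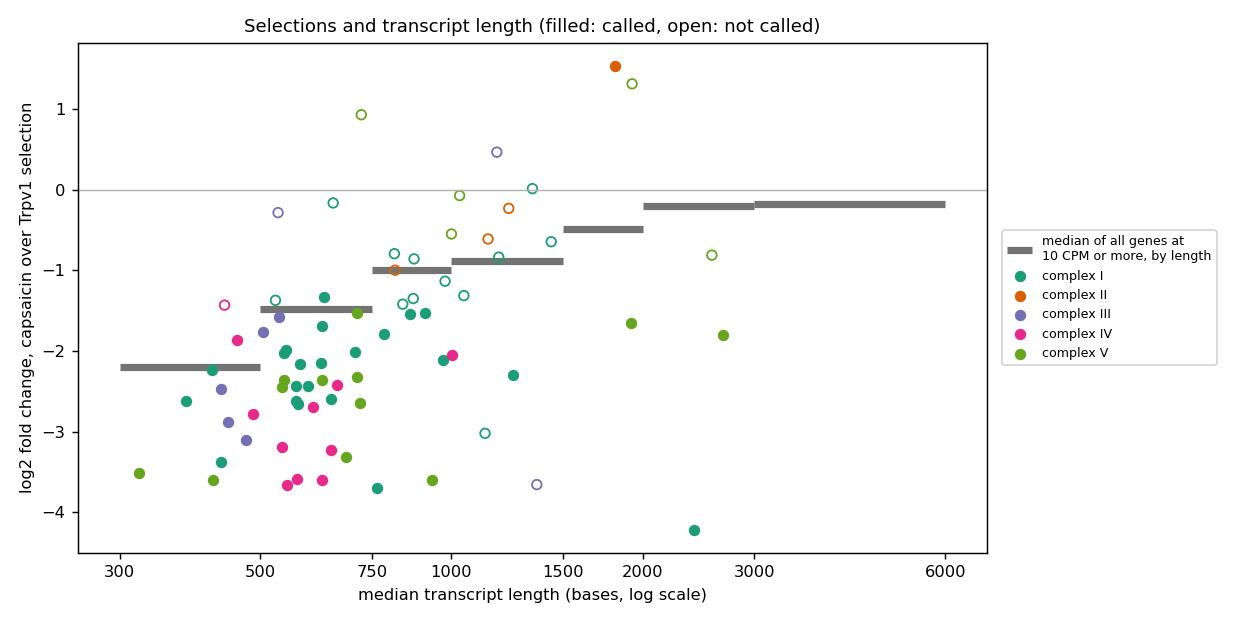
Log2 fold change between the capsaicin and the Trpv1 selection against transcript length in bases (log axis) for the 74 tested members, coloured by complex, filled where called and open where not. Grey bars are the medians of all genes at 10 CPM or more in length classes, the last holding all transcripts above 3000 bases. Lengths are medians over the annotated transcripts of a gene. The grey bars lie lower at short lengths, as do the members up to 1500 bases. Ndufb2, the lowest point, has one of the largest median lengths, and Sdha is the only filled point above 0.

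Related lists, for comparison, gave these values in the nodose to jugular comparisons. The 9 listed subunits and carriers outside the name rule, among them Cox4i1, Cyc1 and Cycs, had a positive log2 fold change for 8 of 8 tested in the Trpv1 selection (median 0.58) and 7 of 7 in the capsaicin selection (median 0.40). The citrate cycle genes had medians of 0.35 and 0.60, and the glycolysis genes 0.18 and 0.42. The assembly factors of the complexes, which help build them but are not part of them, had medians of -0.27 and 0.28. The regulators of mitochondrial biogenesis, with 10 and 7 genes tested, had medians of -2.08 and 1.12. Of these 5 lists, 0 genes were called by edgeR in either comparison. At an unadjusted p under 0.05 they held 8 genes higher and 5 lower in nodose neurons in the Trpv1 selection, and 3 higher and 2 lower in the capsaicin selection. DESeq2 called 0 higher and 1 lower in the Trpv1 selection, and 1 higher and 5 lower in the capsaicin selection.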

How the data were processed

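The authors made cDNA from the picked cells with the SMARTer Ultra Low Input kit (version 3), sequenced paired ends, and deposited raw counts per gene for each pool. The submitters' processing notes name CASAVA 1.8.2, TopHat2 2.0.9, Bowtie2 2.1.0.0, HTSeq and mm10. The HTSeq version, annotation and strand setting are not given in the sources used here.

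From the deposited counts, genes were filtered with filterByExpr and tested with edgeR 4.0.16 (TMM factors, quasi-likelihood F test, Benjamini-Hochberg over all genes tested). Called genes had an adjusted p up to 0.1, a change of 2-fold or more and 10 CPM or more in both pools of a group. The SE given with edgeR values is the absolute log2 fold change divided by the square root of its F statistic. DESeq2 1.42.0 was an alternative, with the standard error of its own model. Levels are counts divided by DESeq2 size factors over the 10 pools, scaled to the geometric mean total. Scripts were tested on simulated data. The members and lists were chosen with earlier results of these data known.

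Genes given values in full were, by a fixed rule, the isoform pairs, the c-ring genes, up to 5 called members per direction (otherwise the 3 of smallest p per direction), the highest and lowest per kb in a complex, and those at most at 3 counts in 1 pool. The values of 1 member that this rule names are not reported here. Members named outside this rule were chosen after their values were seen. Same-numbered pools of compared groups did not deviate together (correlations of 0.001, -0.009 and -0.009), and no pools agreed within sampling noise. The limits given for 3 counts cover counting error only.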

Additional observations from a re-analysis of the deposited data

How the results depend on the processing

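With 2 pools a group and few calls, the members' counts and medians were recomputed under other settings, of which the removal of a length or GC trend was chosen after seeing the data. For nodose over jugular in the Trpv1 selection, 1 member was called with DESeq2 (Cox7a1), 1 with the length trend removed and 1 with no filter on low counts (Atp5g3 in both), and the median was 0.25 with total counts. For Trpv1-positive over Trpv1-negative nodose neurons, the median was 0.32 with the length trend removed and 0.36 with total counts, and between 0.50 and 1.0 with 1 pool left out. For nodose over jugular in both selections, 7 members were called with DESeq2, 3 in a fit of all 10 pools (Atp5g3, Sdhd and Cox5a), 0 with DESeq2 size factors in edgeR, 0 with total counts and 0 with the replicate number as a block, and 0 to 2 with 1 pool left out (2 without the second nodose capsaicin pool: Atp5g3 and Sdhd). For the interaction, 0 to 2 were called with 1 pool left out. Between the selections, the median was -1.50 with DESeq2, -1.52 with DESeq2 size factors in edgeR, -1.70 with the GC trend removed and -1.04 with the length trend removed, where 32 members were called, and 41 to 53 were called with 1 pool left out. The replicate block changed no other count of member calls by over 1.5 times (48 between the selections). The labels do not say whether same-numbered pools shared an animal, and the correlations given above cannot settle it. The call lost under the block is thus a limit of that call.

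Summed levels depended on the scaling, as log2 ratios of group means. With plain totals, nodose over jugular in the Trpv1 selection was 0.19 for complex I, 0.45 for IV and 0.34 for V, and in the capsaicin selection 0.25, 0.79, 0.31, 0.42 and 0.23 for complexes I to V, with and without Rn45s. Trpv1-positive over Trpv1-negative was 0.42, 0.17, 0.33, 0.48 and 0.17 with plain totals, and 0.52, 0.43, 0.58 and 0.27 for I, III, IV and V without Rn45s. The capsaicin over the Trpv1 selection was -1.76, 0.17, -1.60, -3.01 and -1.67 for I to V with TMM, -1.77, 0.19, -1.60, -2.99 and -1.65 with plain totals, and -1.86, 0.10, -1.69, -3.08 and -1.74 without Rn45s. With 1 pool left out, complex I ranged from 0.20 to 0.50 in the Trpv1 selection and 0.56 to 0.99 against Trpv1-negative neurons, and complex III from 0.63 to 1.36 in the capsaicin selection. No summed level changed direction under these settings.

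Among the members named with values, 5 changed sign with 1 pool left out, over these ranges of the log2 fold change: Atp5sl in the Trpv1 selection (-7.48 to 0.0397, positive without the first jugular pool), Atp5c1 and Sdha against Trpv1-negative neurons (-0.40 to 0.13, positive without the first Trpv1-negative pool, and -0.99 to 0.21, positive without the second Trpv1-positive pool), Ndufv3 in both selections (-0.50 to 0.12, positive without the first nodose capsaicin pool) and Cox7a1 in the interaction (-2.34 to 9.59, negative without the first jugular capsaicin pool). The cause was not tested. With 2 pools against 2, an exact permutation test cannot go below p = 0.33, and the capsaicin pools, with fewer counts, set the limit for low members.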
